A study of Mus musculus with 12 samples.

Results

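The H3K4me3 landscape of normal adult mouse heart muscle was read from ChIP–seq (chromatin immunoprecipitation followed by sequencing) of sorted cardiomyocyte (CM) nuclei, where H3K4me3 is histone H3 carrying 3 methyl groups on lysine 4. The 3 libraries described here carry the genotype label Ctrl_Cre: control mice with a Cre recombinase driven by the αMHC promoter, which is active in CMs, and with unmodified *Cpt1b*. The αMHC promoter is that of *Myh6*, a gene described below. Ventricles were frozen, and nuclei were stained with an antibody against PCM1, a centrosomal protein that in CMs surrounds the nucleus, and sorted by FACS. The study also holds H3K4me3 libraries of *Cpt1b*-deficient CMs, which enter no comparison here, and input libraries, which are not analysed here. Age and sex are not in the labels of these libraries. From the 15848 peaks of the deposited table, those on autosomes with a mean of at least 10 normalized counts over the 3 control libraries were kept, which left 14560 peaks. Of the other peaks, 796 were autosomal with a lower mean and 492 lay on X or Y.

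H3K4me3 is deposited around transcription start sites of genes that are active or poised, by the SET1 and MLL (KMT2) methyltransferase complexes, and is removed by KDM5 demethylases. CXXC-domain proteins in those complexes bind unmethylated CG dinucleotides, so promoters rich in CG carry the mark in most cell types. In many tissues a minority of genes, often those that define the cell type, carry it as a broad domain that runs far into the gene. Here a peak was termed broad if its width was above the 75th percentile of the 14560 peaks (2221 bases), narrow if below the 25th percentile (1028 bases) and medium otherwise. Widths are those of peaks merged over all libraries of the study, both genotypes included.

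The 3 replicates held 2115652, 763133 and 1900785 recovered counts in peaks, a 2.77-fold range in which replicate 2 was the shallowest. Counting error at the median peak was 9.02%, 15.1% and 9.58% of the value in replicates 1, 2 and 3. The libraries correlated across peaks with Pearson's r from 0.936 to 0.964 on the log2(value + 1) scale, a description over 14560 peaks that are not independent. The labelled cell type was checked against 11 CM markers, among them the myosin genes *Myh6* and *Myl2*, the troponins *Tnnt2* and *Tnni3* and the cardiac factors *Nkx2-5* and *Gata4*. All 11 had a broad peak, between 6313 and 24891 bases wide, with mean levels from 451 to 2644.7 normalized counts.

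The DNA at promoters differed in kind, and 6 examples, with and without a peak, are printed here. Each line gives the 200 bases before the RefSeq start of a gene (build GRCm38.p6), 5′ to 3′ on the strand of the gene, with every CG dinucleotide in capitals. *Myh6* and *Hand2* had the widest and highest peaks, *Pcdh7* the third highest and *Hjurp* the densest, whereas the skeletal muscle gene *Myf5* and the liver gene *Alb* had none. *Gata4*, *Gm10060* and *Pisd-ps2*, also among the widest or densest, are named only.
Myh6: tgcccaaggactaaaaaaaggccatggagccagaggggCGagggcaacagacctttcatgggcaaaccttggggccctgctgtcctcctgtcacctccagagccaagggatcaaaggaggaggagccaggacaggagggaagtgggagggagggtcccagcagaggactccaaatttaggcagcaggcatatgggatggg
Hand2: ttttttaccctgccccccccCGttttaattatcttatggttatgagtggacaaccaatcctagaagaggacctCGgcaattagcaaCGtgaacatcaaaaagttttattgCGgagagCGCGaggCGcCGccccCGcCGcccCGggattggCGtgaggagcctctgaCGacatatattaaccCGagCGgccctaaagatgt
Pcdh7: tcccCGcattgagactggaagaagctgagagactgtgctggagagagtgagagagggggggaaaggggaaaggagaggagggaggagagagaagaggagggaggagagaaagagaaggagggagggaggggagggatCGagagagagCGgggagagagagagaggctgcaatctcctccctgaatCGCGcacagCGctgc
Hjurp: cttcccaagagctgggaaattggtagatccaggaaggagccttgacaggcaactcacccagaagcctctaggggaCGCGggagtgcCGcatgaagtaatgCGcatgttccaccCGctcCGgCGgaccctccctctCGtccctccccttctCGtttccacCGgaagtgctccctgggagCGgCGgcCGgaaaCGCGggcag
Myf5: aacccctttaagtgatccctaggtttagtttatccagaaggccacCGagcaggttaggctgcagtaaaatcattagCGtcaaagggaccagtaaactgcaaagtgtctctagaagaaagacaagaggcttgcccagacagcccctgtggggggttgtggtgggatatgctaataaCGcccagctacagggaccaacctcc
Alb: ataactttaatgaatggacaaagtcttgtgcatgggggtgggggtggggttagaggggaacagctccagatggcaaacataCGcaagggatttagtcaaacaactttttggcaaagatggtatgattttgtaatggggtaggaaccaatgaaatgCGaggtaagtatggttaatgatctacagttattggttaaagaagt
These stretches lie at chr14:54966608-54966807 on the minus strand (*Myh6*), chr8:57320783-57320982 on the plus strand (*Hand2*), chr5:57717881-57718080 on the plus strand (*Pcdh7*), chr1:88277580-88277779 on the minus strand (*Hjurp*), chr10:107486135-107486334 on the minus strand (*Myf5*) and chr5:90460670-90460869 on the plus strand (*Alb*). *Hand2* and *Hjurp* had 15 CG dinucleotides each in this window and *Pcdh7* had 6. *Myh6*, with the highest peak of all, had 1, fewer than the 3 of *Myf5* and the 2 of *Alb*, which carried no peak.

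The highest peak of the CM genome covered *Myh6*, which encodes the α-myosin heavy chain, the main motor protein of the adult mouse ventricle. It spanned chr14:54955478-54980369 (24891 bases) and held 2605, 2399 and 2930 normalized counts in replicates 1, 2 and 3, or 106.2 per kb. It reached 13728 bases upstream and 11163 bases downstream of the start and also contained the starts of *Mhrt*, an antisense RNA of the locus, and of *Mir208b*. The peak of *Hand2*, a factor of ventricle development, was next at 1304, 1207 and 1465 (chr8:57311086-57334960, 23874 bases, 55.5 per kb). *Pcdh7*, a protocadherin gene, held 1262, 1220 and 1257 (chr5:57714074-57725303, 111.0 per kb). *Nkx2-5*, a homeobox factor of the heart, held 1090, 1007 and 1182. *Fhl2*, which encodes a LIM protein of the Z-disc, held 1054, 990 and 1079. *Pln*, which encodes phospholamban, the inhibitor of the calcium pump SERCA2, held 1003, 832 and 1074. The lowest *Myh6* value lay above every value of the other peaks, whereas the ranges of *Hand2* and *Pcdh7* overlapped and that of *Nkx2-5* lay below both. The Cre transgene of these mice carries the promoter of *Myh6* as well, and its part in the *Myh6* counts was not tested. A further peak in the top 10 was assigned to the small RNA gene *Gm27694* (1080, 839 and 1280) and contained the start of *Malat1*, an abundant nuclear long noncoding RNA (lncRNA). The remaining named peaks of the top 10 belonged to *Gm5105* (1011, 942 and 981) and *Tnrc18* (980, 951 and 973). Peaks of chromosome 18 were counted but are not named.

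**Figure D1:**
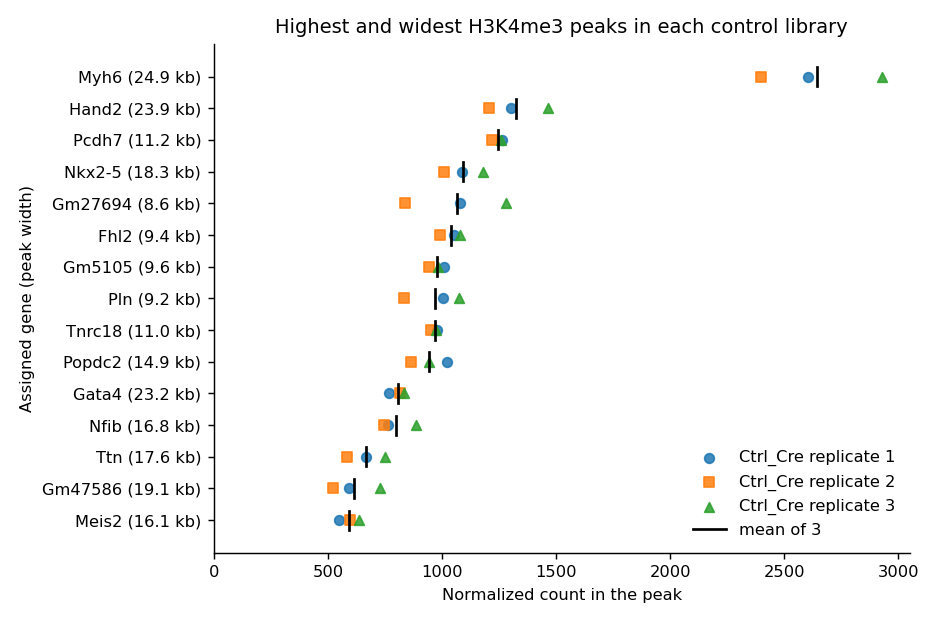
Normalized counts of the highest and widest H3K4me3 peaks in each of the 3 Ctrl_Cre libraries (x axis); each row is 1 peak with its assigned gene and width in kb, symbols are libraries and the bar is their mean. *Myh6* lies between 2399 and 2930, apart from all others, and replicate 2 is the lowest library in most rows.

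*Myh6*, *Hand2* and *Nkx2-5* held the same rank by width as by level, but other wide peaks were less high. *Gata4*, a zinc finger factor of the heart, had the third widest peak (chr14:63228897-63252080, 23183 bases) but held only 768, 818 and 833 normalized counts, or 34.8 per kb. *Ttn*, which encodes the giant spring protein titin, had 17644 bases with 667, 584 and 750 counts, at 37.8 per kb. The homeobox gene *Meis2* had 16114 bases at 36.9 per kb, and *Popdc2*, a cAMP-binding protein gene of heart muscle, had 14918 bases at 63.2 per kb. The *Ttn* peak was strongly one-sided, with 1897 bases upstream and 15747 bases downstream of the start, as was that of *Popdc2* (1625 and 13293), whereas that of *Nkx2-5* reached further upstream (11118) than downstream (7200). The widest peak outside a protein-coding gene was assigned to *Gm47586*, with 19142 bases and 591, 521 and 728 counts. The factor gene *Nfib* completed the named peaks, with 16817 bases.

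Across all peaks the median level was 104, 102 and 102 normalized counts in replicates 1 to 3 and the median width was 1510 bases. The peaks covered 27.03 Mb. Only 491 peaks (3.37%) were wider than 5000 bases and 44 were wider than 10000 bases. The top 10% by level (1456 peaks) held 27.6% ± 0.37 (SD, n = 3) of the normalized counts in 23.5% of the covered bases, and 90.2% of these peaks were broad. The top 1% (146 peaks) held 5.22% ± 0.29, and all of them were broad. The 3 peaks just inside the threshold had a mean of 10 and values of 13, 9 and 8, of 9, 0 and 21, and of 8, 14 and 8 (the last assigned to *Dgkb*). Just outside it stood peaks with a mean of 9.667, among them 1 at the Wnt ligand gene *Wnt9b* (10, 9 and 10).

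Wider peaks held more counts, but not in proportion to their width. Broad peaks had a median level of 200, 198 and 199 normalized counts, medium peaks 112, 109 and 110.5 and narrow peaks 24, 26 and 26. The medians stood in this order in all 3 libraries. The log2 ratio of broad to narrow medians was 2.97 ± 0.073 (SD, n = 3), a 7.86-fold difference, which shrank to 1.29 (log2) in the subset with a mean of 50 or more. Per kb the order changed: medium peaks were densest at 73.5 ± 0.89 normalized counts per kb, broad peaks had 62.0 ± 0.84 and narrow peaks 38.8 ± 1.1. Density was thus higher in broad than in narrow peaks by a log2 ratio of 0.678 ± 0.047, but lower in broad than in medium peaks (-0.244 ± 0.023). Among the 10358 autosomal peaks with a mean of at least 50, with width classes set anew, the broad to narrow density ratio turned to -0.464. In 10 equal groups by width, the median density rose from 35.3 per kb in the narrowest to 76.1 in group 6 and fell to 56.6 in the widest. Spearman's rho between width and level over the 14560 peaks was 0.768 to 0.778 in the 3 libraries, and between width and density 0.191 to 0.204. Over the 10410 peaks that cover the start of their assigned gene, the latter was -0.0339 to -0.0289. These rho values are descriptions, since both measures share the width.

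**Figure D2:**
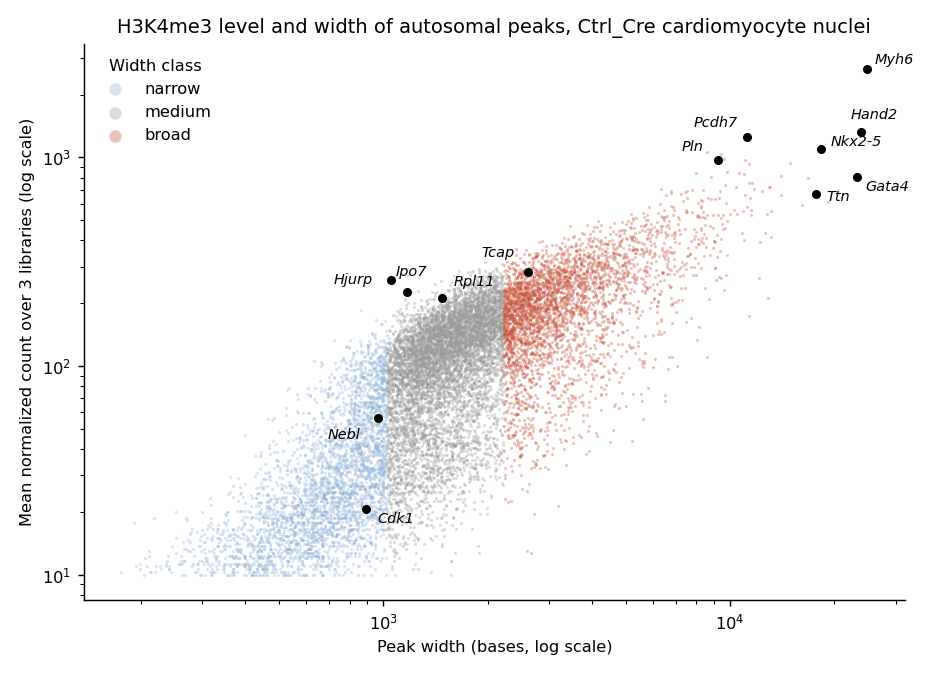
Mean normalized count over the 3 Ctrl_Cre libraries (y axis, log scale) against peak width in bases (x axis, log scale), 1 point per peak without those of chromosome 18, coloured by width class, with named genes in black. *Gata4* and *Ttn* lie at the wide end below *Hand2* and *Myh6*, and *Hjurp* and *Ipo7* lie on the upper edge near 1000 bases.

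With 3 libraries, the exact two-sided sign-flip permutation test used for differences between classes of peaks cannot go below p = 0.25, so no such difference could pass 0.05. In this exact test each difference between classes given here with a log2 ratio had p = 0.25, except where p = 0.5 is stated, and its size is set against the SD over libraries. The labels do not say which mice the libraries came from, so this spread may be technical in part. Only replicate 3 had counts in peaks on Y, so the spread may also hold differences between animals, such as sex.

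The densest peaks (mean of at least 50) were short and, in each case, contained a start. *Hjurp*, whose product is the chaperone that loads the centromeric histone CENP-A, led with 198, 353 and 225 normalized counts in 1056 bases, or 244.9 per kb. This value leans on replicate 2, the shallowest library, which was higher than both others. The pseudogenes *Gm10060* (236, 279 and 306; 231.7 per kb) and *Pisd-ps2* (183, 205 and 167; 214.9 per kb) came next. Reads of pseudogenes with near-identical copies elsewhere in the genome are uncertain, although only unique alignments were kept. *Ipo7*, an importin gene, held 245, 207 and 227 (193.4 per kb). *Slc36a1*, *Vps13b*, *Morn2*, *Dpp8* and *Gosr2* followed, between 174.3 and 185.9 per kb, in peaks of 721 to 1415 bases. For comparison, *Hand2* had 55.5 per kb and *Myh6* 106.2 per kb.

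The mark lay mostly on and after the start of genes. Of the 11940 peaks assigned to a gene, 10410 (87.2%) contained the start of that gene, 478 lay wholly upstream of it and 1052 wholly downstream. Peaks that contained the start reached a median of 545 bases upstream and 1064.5 bases downstream. The summit lay a median of 206 bases downstream of the start, and on the downstream side in 83.2% of these peaks. The reach was longer on both sides in wider peaks. The median reach was 258 bases upstream and 554 downstream in narrow peaks, 518 and 982 in medium peaks and 924 and 2046 in broad peaks. In peaks wider than 5000 bases it was 1431 and 4773, with a summit at 394 bases. The median ratio of downstream to upstream reach was 2.19 in narrow, 1.91 in medium and 2.4 in broad peaks, and 3.41 in those wider than 5000 bases. The share with the summit downstream did not follow, at 82.5%, 85.4%, 79.3% and 78.2%. Broad peaks extended into the gene while their summit stayed at a median of 303.5 bases from the start. The start was covered in 65.6% of the narrow peaks, 91.3% of the medium and 93.4% of the broad peaks.

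**Figure D3:**
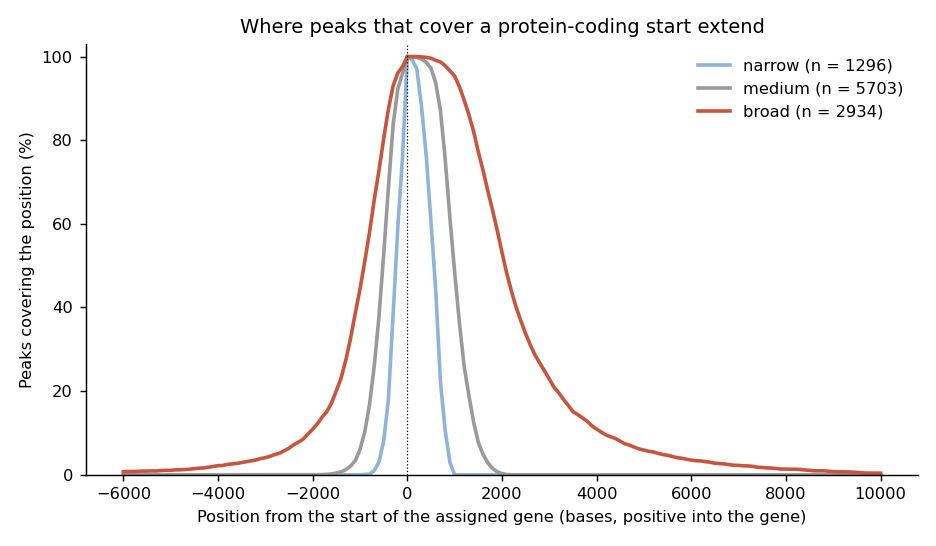
Share of peaks (y axis, %) that cover each position from the start of the assigned protein-coding gene (x axis, bases, positive into the gene), for narrow, medium and broad peaks that contain the start. At 2000 bases into the gene 53.2% of broad peaks still cover the position, against 10.9% at 2000 bases upstream and 0.298% of medium peaks at 2000 bases into the gene.

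Peaks with protein-coding starts on both strands differed from those with the start of 1 such gene. There were 1064 of them, with a median level of 201, 193 and 195 normalized counts, against 121, 121 and 120 for the 9693 peaks with the start of 1 protein-coding gene. The ratio was 1.63-fold (log2 0.702 ± 0.029) in level and 1.27-fold (log2 0.346 ± 0.014) in density. They were also wider, with a median of 2129.5 bases against 1636. They were nearly symmetric, with a median of 972 bases upstream and 1081 downstream of the assigned start. The summit lay upstream as well as downstream, with quartiles at -279.5 and 282.5 bases. For single protein-coding starts the medians were 500 and 1077 bases. The orientation and distance of starts on opposite strands were not checked, so the class need not hold divergent promoters only.

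Peaks that missed the start of their assigned gene were lower. Their median level was 37, 40 and 39 normalized counts, against 130, 128 and 128 where the start was covered, a 3.33-fold difference (log2 1.74 ± 0.070). The difference in density was 1.86-fold (log2 0.896 ± 0.054). Those downstream of the start had a slightly higher median level than those upstream, 40.3 ± 1.5 against 34.3 ± 0.58.

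By biotype, 11033 peaks (75.8%) were assigned to protein-coding genes and held 87.5% ± 0.34 of the normalized counts. Their median level was 124, 123 and 123. The 497 peaks of lncRNA genes had a median of 50, 53 and 56, lower by a log2 ratio of -1.22 ± 0.088 in level and of -0.743 ± 0.049 in density. Broad peaks made up 24.5% of the lncRNA peaks and 28% of the protein-coding peaks. Within broad peaks alone the lncRNA difference in level was -0.43 ± 0.084, and within narrow peaks -0.672 ± 0.079. In the subset with a mean of 50 or more it was -0.218. Antisense RNA genes (133 peaks, median level 71.7 ± 1.5) and processed transcripts (86 peaks, 69.5 ± 2.8) stood above lincRNA genes (262 peaks, 45.5 ± 4.1). Pseudogenes (158 peaks) had a median of 35.2 ± 2.0 and small RNA genes (138 peaks) 38.2 ± 1.6, the latter higher in each of the 3 libraries. The start was covered in 90% of the protein-coding peaks, 63.4% of the lncRNA peaks and 39.9% of the small RNA peaks.

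Several of the highest noncoding peaks covered the start of a coding neighbour. The highest lncRNA peak was that of *A330032B11Rik* (648, 693 and 738; chr19:37171753-37178529), which also contained the start of *Cpeb3*. *Lncpint*, an lncRNA regulated by p53, held 629, 593 and 704 in 7493 bases. *D830005E20Rik* held 650, 511 and 696 with no other start in the peak, and *1810026B05Rik* held 453, 425 and 490. A peak of an antisense RNA gene on chromosome 17 (419, 500 and 474) contained the start of *Anks1*. Among the widest lncRNA peaks, *Gm11205* (8494 bases, 28 per kb) and *A330074K22Rik* (7466 bases, 21.8 per kb) were sparse, whereas *Lncpint* had 85.7 per kb. Among small RNA genes, chosen here after their values were seen, the peak of *Mir1a-1*, a muscle microRNA gene, held 796, 744 and 869 in 8819 bases. A peak assigned to *Gm27533* (654, 644 and 756) contained the start of *Neat1*, the scaffold RNA of paraspeckles.

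No gene was assigned to 2620 peaks (18%), which held 8.33% ± 0.23 of the counts. Their median level was 29, 30 and 33 against 119, 119 and 118 for assigned peaks (log2 1.95 ± 0.10, or 0.492 in the subset with a mean of 50 or more), and the median density was 34.4 ± 1.6 per kb against 68.0 ± 0.67. In the GENCODE vM21 annotation 534 of them nevertheless contained the start of a transcript, with a median level of 80.3 ± 1.6. A further 1210 lay inside a gene without a start, at 26.3 ± 1.5, and 876 outside genes, at 25.7 ± 1.5. In replicates 1, 2 and 3 the medians were 25, 26 and 28 inside genes and 24, 26 and 27 outside, equal in replicate 2. Of the 5 highest unassigned peaks, 4 contained a start. That at chr8:85357623-85365731 (613, 553 and 650) contained a start of *Mylk3*, the cardiac myosin light chain kinase, whose own assigned peak held 101, 81 and 130. That at chr15:77013167-77023444 (517, 544 and 620) contained a start of *Mb*, which encodes myoglobin. That at chr14:101839610-101847836 (551, 553 and 604) contained a start of *Lmo7*. That at chr4:120809018-120817096 (553, 509 and 496) contained a start of *Nfyc*, which encodes a subunit of the general transcription factor NF-Y. The fifth, at chr14:101883098-101891295 (542, 453 and 552) contained no start, the nearest being 42450 bases away. The second widest unassigned peak (chr8:46490585-46503172, 12587 bases; 420, 442 and 434) contained a start of *Acsl1*, the acyl-CoA synthetase of the heart, whose assigned peak had 3191 bases and held 182, 198 and 147. The widest, at chr15:85669144-85682312 (13168 bases; 391, 458 and 400), lay 15528 bases from the nearest start.

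The presence of the mark followed gene families. Of 20807 autosomal protein-coding genes in vM21, 11721 (56.3%) had a start inside 1 of the 14560 peaks. This held for 1 of 1128 olfactory receptor genes, 1 of 329 vomeronasal receptor genes and 2 of 53 keratin genes. In contrast, it held for 37 of 39 proteasome genes, 77 of 78 mitochondrial ribosomal protein genes and 325 of 385 zinc finger protein (Zfp) genes. Of lincRNA genes, 500 of 5209 (9.6%) had a start in a peak.

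Gene lists were read by the highest peak assigned to each gene, over 11675 genes with a median level of 121, 121 and 120, a median density of 68.6 ± 0.65 per kb, a median width of 1629 bases and 27.8% broad. Of 30 sarcomere and Z-disc genes, 29 had an assigned peak and 28 of these (96.6%) were broad. Their median width was 7485 bases. Their median level was 417, 386 and 468 normalized counts, 3.5-fold that of all genes (log2 1.81 ± 0.15). Per kb they did not stand apart, at 65.5 ± 3.6 (log2 -0.0677 ± 0.080, exact sign-flip permutation test, p = 0.5). *Tnni3*, the inhibitory troponin of adult heart, was among the densest at 111.9 per kb (691, 630 and 798). *Actc1*, the cardiac actin, held 858, 723 and 924 in 10980 bases, and *Lmod2*, an actin nucleator, 831, 716 and 1012 in 9831 bases. The titin cap gene *Tcap* had only 2624 bases but 108.1 per kb. The exception was *Nebl*, which encodes nebulette, with a narrow peak of 967 bases (56, 63 and 51). *Cryab* had no assigned peak, but its start lay in the peak assigned to its neighbour *Hspb2* (495, 542 and 517).

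Genes of calcium handling and ion channels had an assigned peak in 23 of 25 cases, 78.3% of them broad, with a median width of 5068 bases and a density of 77.2 ± 2.8 per kb. *Atp2a2*, the SERCA2 pump, held 921, 874 and 1004 in 11341 bases. *Ryr2*, the calcium release channel, held 692, 570 and 658. *Gja1*, the connexin of the intercalated disc, held 863, 835 and 840, 3 values within a few percent of each other. The pacemaker channel gene *Hcn2* was low (84, 84 and 65; 1559 bases). *Sln*, the atrial regulator of the pump, had no peak. The start of *Slc8a1*, the sodium–calcium exchanger, lay in an unassigned peak (380, 337 and 358).

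Of 25 cardiac transcription factors, 23 had an assigned peak, 91.3% broad, with a median width of 6596 bases and a density of 58.6 ± 4.0 per kb, below that of all genes (log2 -0.229 ± 0.089). Their level was 3.24-fold that of all genes. *Tbx20* held 761, 672 and 820 in 11581 bases and *Tbx5* 574, 528 and 559 in 10904 bases. *Irx4*, a factor of ventricular identity, had 12219 bases at 32.2 per kb. *Ppargc1a*, the coactivator of mitochondrial genes, held 550, 504 and 526. *Mef2a* was closer to the bulk (203, 214 and 203; 2556 bases), and *Esrrb* had the narrowest peak of the list (1052 bases; 56, 67 and 64). *Hand1* had none, in contrast to its relative *Hand2*.

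Metabolic genes carried wide peaks whose density differed among lists. For fatty acid uptake and oxidation, 27 of 30 genes had an assigned peak, 81.5% broad, with a median width of 4229 bases. Their median level was 239, 239 and 235. Their density of 61.5 ± 2.9 per kb was below that of all genes in each library (log2 -0.158 ± 0.080). *Lpl*, the lipoprotein lipase, led with 668, 586 and 731 (101.2 per kb). *Hadha* and *Hadhb*, which encode both chains of the mitochondrial trifunctional protein, share a single peak of 11436 bases (658, 597 and 661). The start of *Fabp3*, the heart fatty acid binding protein, lay in a peak assigned to *Gm10570* (910, 807 and 803). *Cpt1b*, the carnitine palmitoyltransferase that the study deletes elsewhere, held 428, 407 and 436 in 9156 bases that also contained the start of *Chkb*. *Cd36*, the fatty acid transporter, held 448, 465 and 498. *Ehhadh*, of peroxisomal oxidation, was narrow (989 bases; 87, 95 and 68).

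Oxidative phosphorylation genes, assigned in 29 of 30 cases, had shorter peaks (median 2778 bases, 65.5% broad) of higher density, 89.5 ± 4.9 per kb (1.3-fold that of all genes). *Cyc1*, cytochrome c1, had 135.3 per kb in 1929 bases, and *Cox6c* 130.1 per kb in 2001 bases. *Atp5c1* was the widest at 6837 bases (544, 586 and 598), in a peak that also contained the start of *Kin*. Cytosolic ribosomal protein genes had still shorter and denser peaks: 32 of 34 were assigned, 18.8% broad, with a median width of 1734.5 bases and 97.3 ± 0.93 per kb (1.42-fold). *Rpl5* reached 159.3 per kb in 1429 bases and *Rpl11* 142.3 per kb in 1483 bases. Among the lists with at least 10 assigned genes, the median width was largest for sarcomere genes at 7485 bases. It was smallest for cell cycle genes at 1394 bases, followed by housekeeping genes at 1495, markers of other cardiac cells at 1596.5 and ribosomal genes at 1734.5.

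**Figure D4:**
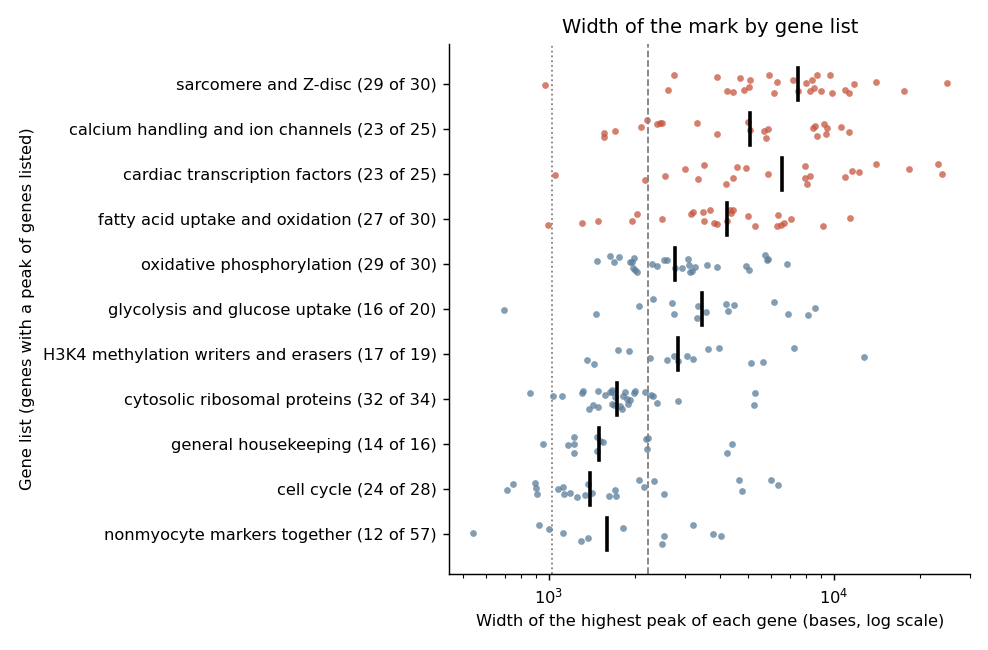
Width in bases (x axis, log scale) of the highest peak assigned to each gene, by gene list, 1 point per gene without those of chromosome 18. The black bar is the median over the list, the dotted line the narrow limit (1028 bases) and the dashed line the broad limit (2221 bases). All but 2 of the lists from sarcomere to glycolysis have medians over 4000 bases, the exceptions being oxidative phosphorylation (2778) and glycolysis (3446.5).

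Glycolysis and glucose uptake genes had an assigned peak in 16 of 20 cases, and all 20 had a start in some peak. Their median width was 3446.5 bases and 81.2% were broad. *Eno3*, the muscle enolase, held 507, 558 and 528 in 8582 bases that also contained the start of *Pfn1*. *Hk2*, the muscle hexokinase, held 409, 356 and 421. *Slc2a4*, the insulin-responsive glucose transporter, held 194, 198 and 247. The peak assigned to *Aldoa* was low (35, 28 and 38; 694 bases), but a RefSeq start of the gene lay in another peak of 4253 bases (363, 386 and 402). General housekeeping genes (14 of 16 assigned) had a median level of 98.5, 104.5 and 101, below that of all genes in each library (log2 -0.252 ± 0.043), with a median width of 1495 bases, 21.4% broad and a density of 73.5 ± 4.3 per kb.

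Genes of the H3K4 methylation machinery carried the mark themselves. The list held methyltransferases, other subunits of their complexes and demethylases. Of its 19 genes, 17 had an assigned peak, 70.6% broad, with a median level of 221, 242 and 203 (1.84-fold that of all genes). *Setd1b*, the catalytic subunit of a SET1 complex, had 12751 bases (511, 518 and 577), of which 10009 lay upstream of its start. This peak also contained the start of *Rhof*. *Kmt2e* had 7232 bases (631, 686 and 688). Of the demethylases, *Kdm5b* held 283, 321 and 253 in 5655 bases, *Kdm5a* 272, 258 and 247 in 3060 bases. *Kdm1a*, whose product removes 1 or 2 methyl groups from lysine 4 but not the trimethyl mark, held 93, 102 and 90 in 1440 bases.

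Cell cycle genes had a low median level with wide differences among members. Of 28, 24 had an assigned peak and all had a start in some peak. The 24 had a median level of 64, 77 and 68 and a density of 42.2 ± 0.88 per kb, 0.615-fold that of all genes. The other 4, which do not enter this median, had starts in higher peaks of neighbours: *Aurka* (245, 281 and 210), *Mcm2* (314, 372 and 266), *Mcm7* (154, 137 and 157) and *Pcna* (227, 256 and 233). The mitotic genes *Cdk1* (22, 21 and 19), *Ccnb2* (29, 28 and 21), *Cdc20* (20, 28 and 27) and *Bub1* (24, 35 and 30) ranked between 11974 and 12971 of the 14560 peaks by level, whereas the mitotic kinase gene *Plk1* held 133, 135 and 131. The proliferation marker gene *Mki67* held 46, 58 and 63. Of the D-type cyclin genes, *Ccnd1* (231, 205 and 198) and *Ccnd2* (268, 295 and 279) had broad peaks and *Ccnd3* (36, 30 and 45) a narrow one. *Cdk6*, a kinase partner of these cyclins, had a broad peak (383, 409 and 368). The peak assigned to *Aurkb* held 288, 332 and 306 in 4765 bases but contained no vM21 start.

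Genes of the fetal heart were mostly bare. Of 7, *Nppb*, which encodes the B-type natriuretic peptide, had a peak of 200, 156 and 176, and the skeletal actin gene *Acta1* an assigned one of 22, 46 and 42 in 2474 bases that contained no vM21 start. The adjacent *Nppa*, *Myh7*, the slow troponin gene *Tnni1* and *Myl7* had none. *Myl4*, an atrial light chain gene, had a start in the peak assigned to *Cdc27* (225, 214 and 182).

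Markers of other cardiac cells were low or absent. Of 57 such genes, 12 had an assigned peak, with a median level of 49, 68.5 and 54.5, against 417, 386 and 468 for the sarcomere list (log2 -2.9 ± 0.35). Their summed level was 708, 860 and 725 in replicates 1 to 3, and that of the 29 sarcomere peaks was 15215, 14093 and 17126, so replicate 2 was highest for the former and lowest for the latter. The part of other cells in the results was not tested, and in sorted nuclei fewer cells of a type and less of the mark per cell cannot be told apart. None of 14 immune markers, among them *Ptprc*, *Csf1r* and *Cd68*, had a peak, nor had the endothelial genes *Pecam1*, *Cdh5* and *Vwf* or the fibroblast genes *Col1a1*, *Col1a2* and *Dcn*. The peaks that were present included the vascular receptor gene *Kdr* (39, 91 and 64), the fibroblast receptor gene *Pdgfra* (69, 58 and 68; 3774 bases at 17.2 per kb) and the smooth muscle gene *Acta2* (97, 119 and 71). The highest was *Abcc9* (201, 174 and 175), the regulatory subunit of a potassium channel that CMs also use.

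Lineages outside the heart muscle were nearly free of the mark. None of 14 skeletal muscle genes had a peak, including the factors *Myod1*, *Myf5* and *Myog* and the fast myosin genes. Of 14 liver and pancreas genes, 1 had an assigned peak, *Apoa1*, with 13, 33 and 23 in 494 bases that contained no vM21 start. The RefSeq start of another, *Apoa2*, lay in a broad peak of 2906 bases (108, 114 and 81). Of 30 patterning homeobox and Pax genes, 4 had a peak, among them *En2* (35, 42 and 43; 1868 bases), *Hoxd1* (12, 14 and 16; 418 bases) and *Dlx5* (16, 9 and 13; 624 bases). Of 12 neuronal genes, *Neurod1*, *Nefl* and *Nefm* had peaks of at most 40 in any library. Of 10 germline and pluripotency genes, *Prdm9*, which encodes a meiotic H3K4 methyltransferase, held 144, 116 and 130, and *Dazl* 24, 23 and 18.

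Base composition set these groups apart. The peaks had a median GC content of 55.6% against 41.9% for all autosomal bases, and 48.8 CG dinucleotides per kb against 8.51. Among peaks that cover the start, CG per kb fell with width: 60.1 in narrow, 54.4 in medium and 45.2 in broad peaks. It was 29 in those of them wider than 5000 bases. Over all peaks, with or without a start, the values were 45.7 in narrow, 52.4 in medium and 42.5 in broad peaks. The *Myh6* peak had 15.1 per kb and *Ttn* 13.4, both above the 8.51 of all autosomal bases, and *Pln* had 7.05, slightly below it. *Hand2* had 28, *Hjurp* 54 and *Ipo7* 70.9. Unassigned peaks without a vM21 start had 26.4 per kb. Over all peaks, Spearman's rho between CG per kb and density was 0.186, a description.

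The CG content of the promoter separated genes with and without the mark, in 19174 RefSeq promoters of autosomal protein-coding genes (250 bases before to 50 after the start). Those with the start in a peak had a median of 23 CG dinucleotides in 300 bases and those without had 4. Of promoters with 24 or more, 91.2% carried a peak, of those with 8 to 15, 60.7%, and of those with 0 to 1, 1.61%. The motif TATAAA, searched on the strand of the gene in the 50 bases before the start, was in 1.18% of the promoters with a peak, in 5.49% of those without and in 3.1% of all. The GC box GGGCGG, searched on both strands of the 300 bases, was in 69.7%, 21.6% and 48.3%. GGGCGG contains a CG, so both counts overlap. A match is a description of letters and not a binding site.

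Promoters with few CG dinucleotides rarely carried a peak, but where they did it was often broad. Of 1983 promoters with 0 to 1 CG in 300 bases, 32 carried a peak, and 19 of these peaks (59.4%) were broad, against 31.5% of the peaks at promoters with 16 or more. Their median level was 187, 164 and 202 normalized counts and their median width 2695.5 bases, against 138, 137 and 135 and 1768.5 bases. Density did not follow, at 66.8 ± 4.2 per kb against 73.1 ± 0.69. The widest of them, chosen here by width after their values were seen, were at *Mybpc3*, the cardiac myosin binding protein C (11751 bases; 661, 760 and 690), *Mb*, *Fhl2*, *Pln*, *Synpo2l*, *Tnnt2* and *Tnnc1*. A promoter counts as carrying a peak if its start lies inside, and a wide peak can also hold the start of another gene. The *Tnnc1* peak, for example, also contained the start of *Nisch*. Whether the mark belongs to the CG-poor promoter was not tested. Promoters of the sarcomere list had a median of 5 CG, near that of promoters without a peak, yet 31 of its 36 starts lay in a peak. Promoters of the homeobox and Pax list had a median of 20, and 1 of its 27 starts lay in a peak. The skeletal muscle list, with a median of 4, had 0 of 9 starts in a peak, and TATAAA in 4 of 9. The *Myh6*, *Myf5* and *Alb* stretches printed above had 2, 3 and 3 CG in the whole 300 bases, just above this limit and among the promoters with 2 to 7, where 37.4% of 562 peaks were broad. At 8 to 15 CG 25.1% of 1751 peaks were broad, so the share did not fall steadily with CG content.

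**Figure D5:**
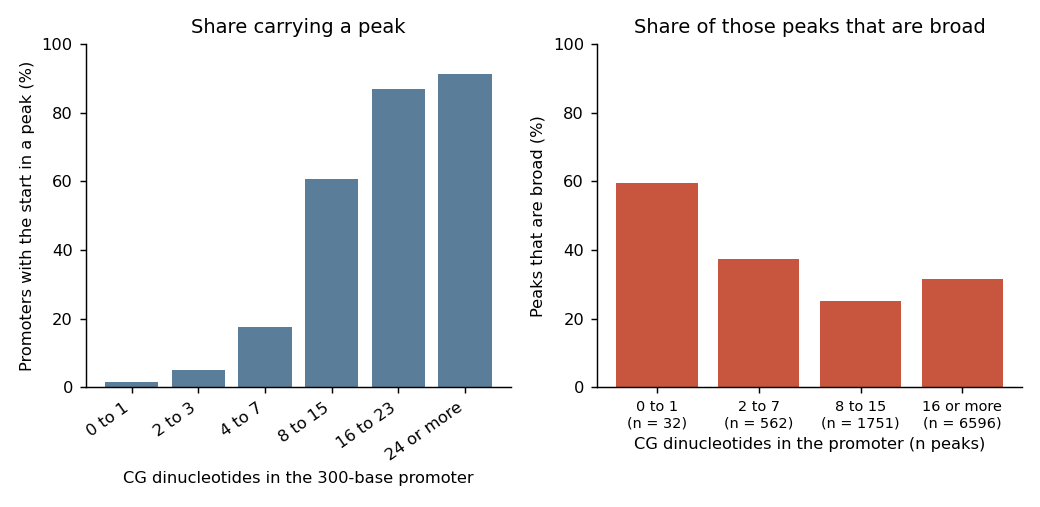
Left, share of RefSeq promoters of autosomal protein-coding genes with the start inside a peak (y axis, %) by the number of CG dinucleotides in the 300-base promoter (x axis). Right, share of the peaks at such promoters that are broad (y axis, %), which is 59.4% of 32 peaks at 0 to 1 CG and 31.5% of 6596 peaks at 16 or more. It is 37.4% at 2 to 7 CG and 25.1% at 8 to 15.

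Among the libraries, the root mean square spread was above that from counting error in each of 10 equal groups of peaks by level. The median coefficient of variation (CV) over the 3 libraries was 33.4% in the lowest 10% by level, beside 30.4% from counting. It was 7.31% in the highest 10%, beside 6.9%. A CV from 3 values has a median below the true one, so these medians do not show that counting accounts for the spread. The root mean square CV was 42.4% against 31.2% from counting in the lowest 10% and 9.27% against 6.71% in the highest 10%. Of 7523 peaks with a mean of at least 100, 46 (0.611%) had a CV over 30%. The most variable were *Gm14226* (77, 177 and 77), *Aptx*, a DNA repair gene (151, 60 and 155), an unassigned peak at chr5:123665974-123671421 (91, 105 and 196), *Nsmce4a* (89, 177 and 94) and an unassigned peak at chr5:92386837-92395140 with a start of *Art3* (390, 251 and 586). In *Gm14226*, *Aptx* and *Nsmce4a* replicate 2, the shallowest, was the library apart. The least variable were *Appbp2* (235, 235 and 234), *Triap1* (221, 221 and 222), *Cog5* (214, 214 and 215) and *Fam53a* (208, 209 and 209), which agree more closely than counting error. They were picked as the smallest of 7523 CVs, so this closeness follows from the selection.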

How the data were processed

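H3K4me3 ChIP–seq libraries of 3 Ctrl_Cre samples were used, grouped by title. Per the study's methods, the authors trimmed reads with Trimmomatic (0.39), aligned them with STAR (2.6.1d) to mm10 (GRCm38), keeping unique unspliced alignments, removed duplicates with Picard (2.21.7), called peaks against input with MUSIC, took out blacklisted regions and unified peaks over every library of both genotypes. The width of a peak is therefore that of the union. FastQC (0.11.8) was used for quality control. The deposited value per library is a normalized count (DESeq2 1.26.0 size factors) that the authors rounded to whole numbers, treated here as a score. The deposited unrounded control mean is a signal computed by the authors. The deposited fraction of a peak inside the gene body was not used for any statement. The authors assigned a peak to the nearest promoter within 5000 bases. Columns of the comparison between genotypes (fold changes and p-values) and columns of the other genotype were not used.

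Whole counts per library were recovered as the integers whose scaled values round to the deposited ones and average to the unrounded mean (1 solution in 15848 of 15848 peaks, the mean met within 1.23e-06). They were used for depth and counting error only, which cover no other error. Counting error takes each count as 1 read. The study's methods name bigWigAverageOverBed as the source of the counts per peak and do not state whether this holds. A floor of 3 counts corresponds to 2.52, 6.97 and 2.82 normalized counts in replicates 1, 2 and 3. Python 3.11.15 with numpy 2.4.6, pandas 2.3.3, scipy 1.17.1 and matplotlib 3.10.9 was used. Scripts were tested on simulated data. Medians were computed in each library, and the mean ± SD is over the 3 libraries. Density is the value divided by the width in kb. Coordinates are those of the deposited table, and whether they count from 0 or 1 is not given in the sources used here. Gene symbols were taken from GENCODE vM21 by identifier (11923 of 11940 assigned peaks matched), promoters from RefSeq (GRCm38.p6) and base composition from that genome.

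Genes named are the 10 highest, 10 widest and 10 densest peaks, the 5 highest and 5 widest among lncRNA and unassigned peaks, the 5 with the largest and smallest CV (mean of at least 100), the 3 nearest the threshold on each side and members of 21 gene lists. Some of these genes are not reported here. Members and lists were chosen with earlier results of these data known. Alternatives were no minimum mean, a minimum of 50, equal library totals, leaving out each library, the widest and narrowest 10% of peaks, assignment to any vM21 start and the widest peak per gene.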

Additional observations from a re-analysis of the deposited data

Results flagged for a closer look

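Signal outside the autosomal peaks was present in the same libraries. On Y, the table lists 4 peaks, at *Uty*, *Ddx3y*, *Eif2s3y* and *Kdm5d*. They held 130, 115, 70 and 85 normalized counts in replicate 3 and 0 in both other replicates, where a count of 0 allows a level of up to 2.52 in replicate 1 and 6.97 in replicate 2. The labels of these libraries give no sex. *Kdm5d* and *Uty* encode histone demethylases. On X, 465 of 488 peaks had a mean of at least 10, with a median level of 61, 67 and 59 and a median width of 1601 bases, against 104, 102 and 102 and 1510 bases for the autosomal peaks. The X median was below the autosomal median in 3 of 3 libraries, including replicate 3.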

How the results depend on the processing

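No paired analysis was possible because the data described form a single group of libraries. Of 68 alternatives of 10 results, 61 left the result on its side. The density of broad over narrow peaks reversed, from a log2 ratio of 0.678 to -0.464, with a minimum mean of 50, for a cause that was not tested. The share of counts in the top 10% of peaks moved from 27.6% to 28.6% without a minimum and to 23.2% with a minimum of 50. The share of assigned peaks that cover the start moved from 87.2% to 85.5% and 93.6% under the same settings, and to 91.6% when any vM21 transcript start within 5000 bases counted. With the widest and narrowest 10% as classes, 89.7% of the sarcomere peaks were broad. Level ratios kept their direction but shrank with a minimum of 50: broad over narrow to 1.29, lncRNA over protein coding to -0.218 and assigned over unassigned to 0.492. Leaving out each library moved the broad to narrow density ratio between 0.64 and 0.699 and the nonmyocyte to sarcomere ratio between -3.1 and -2.79. Depth limits replicate 2, where 11 peaks were at 0. Normalization by size factors hides a shift shared by all peaks, and values of the input libraries are not analysed here.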

Other observations

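Genes of the circadian clock, chosen after their values were seen, were among the peaks that differed between libraries. *Per1*, a repressor of the clock, held 328, 221 and 488 normalized counts in replicates 1 to 3 (CV 38.9%), *Ciart* 97, 77 and 160 (CV 38.9%), and the wider of 2 peaks of *Nr1d2* 138, 91 and 181 (CV 32.9%). *Per2* (151, 139 and 218), *Per3* (127, 133 and 188), *Tef* (124, 93 and 155) and *Bhlhe41* (374, 305 and 493) were also highest in replicate 3. *Arntl* (153, 151 and 125) and *Npas2* (210, 198 and 142), which encode activators of the clock, were lowest there. *Nr1d1* (375, 367 and 365), *Hlf* (165, 153 and 158) and *Bhlhe40* (420, 404 and 420) varied little. Of the 20 most variable peaks with a mean of at least 100, 13 were highest in replicate 3 and 7 in replicate 2. The labels give no time of tissue collection, and no test was made on these genes. Replicate 3 was also the only library with counts in the Y peaks given above.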
